A study of Danio rerio with 18 samples.

Results

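The genes described here are members of immune multigene families of the zebrafish (Danio rerio), chosen by symbol: every gene of the deposited table whose symbol starts with mhc1, mhc2, ftr and a number, gimap, ms4a17a, nitr, pimr or nlrc3. The rule took 168 of the 25535 genes: 14 mhc1, 10 mhc2, 55 ftr, 13 ms4a17a, 7 nitr, 65 pimr and 4 nlrc3 genes. No gene of the table had a gimap symbol, so 7 of the 8 families searched were represented. The rule itself used symbols and no measured values, but the members were proposed with earlier results of these data known.

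RNA was sequenced in 18 libraries, each made from 20 to 25 pooled whole embryos, in 6 groups of 3. Embryos collected 24 hours after fertilisation (hpf) were wild-type WIK, a her3 knockout line, WIK given a her3 morpholino, or WIK given a mismatch morpholino, which served as injection control. Morpholinos are synthetic antisense molecules that keep a transcript from being spliced or translated. Embryos collected at 72 hpf were WIK or knockout. The titles call the mutant line her3_38aa, and her3 encodes a Hairy/E(spl)-type repressor of the neural plate. No source used here gives the genetic background of the line or says whether its pools had WIK siblings. The her3 genotype and the ancestry of the line therefore cannot be told apart in any comparison with WIK. The 3 WIK-derived groups at 24 hpf were all described as WIK, and the parents behind each pool are likewise unstated.

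These families belong to the most variable part of the zebrafish genome: copies arise and are lost in tandem arrays, and fish of different lines can carry different sets of them. The mhc1 and mhc2 genes encode chains of the major histocompatibility complex, which display peptides to T cells, and in mhc1 the next letter of the symbol names the lineage (U, Z, L or H). The ftr genes encode finTRIM proteins, a fish expansion of the tripartite motif family with antiviral members. The ms4a17a genes encode 4-pass membrane proteins related to CD20, the nitr genes fish immunoglobulin-domain receptors of innate lymphoid type, the pimr genes serine/threonine kinases related to the Pim kinases, and the nlrc3 genes cytosolic NOD-like receptors.

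Values are in CPM, the reads of a gene scaled by the authors to an effective library size. Between 14214136 and 23135995 reads per library were recovered from the table, so that 3 reads, used as the floor for a gene at 0, were worth 0.122 to 0.255 CPM. In 4 groups 1 library stood apart from the others: WIK replicate 1, her3 morpholino replicate 1 and mismatch morpholino replicate 3 at 24 hpf, and knockout replicate 3 at 72 hpf. The median absolute log2 difference over the genes tested was 0.33 and 0.36 for the pairs with WIK replicate 1 and 0.12 for the other pair. The her3 transcript did not fall in the libraries labelled as knockout: it was at 22.1 ± 0.0623 CPM (SD, n = 3) there against 10.03 ± 0.916 CPM in WIK at 24 hpf, and at 2.15 ± 0.313 against 1.35 ± 0.114 CPM at 72 hpf. It was 35.9 ± 5.15 CPM in the her3 morpholino and 7.87 ± 0.214 CPM in the mismatch group. The transcript level thus gives no check of the knockout label, and "knockout" below means the libraries so labelled. Whole-embryo markers were present in every group, among them actc1b of muscle, krt4 of skin and ELAVL3 of neurons. Lymphocyte markers were not alike in WIK at 24 hpf: cd79a at 0.0347 CPM and lck at 0.165 CPM on average were near the floor, and cd28, at 2.47 CPM, was above it.

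Most members were hardly expressed. A gene was tested if it reached 1 CPM in at least 3 libraries, which 44 of the 168 members did (26.2%, against 81.2% of all genes): 9 mhc1, 1 mhc2, 22 ftr, 4 ms4a17a, 3 nitr, 3 pimr and 2 nlrc3 genes. The other 124 had too few reads and are described separately. A member that passed only because 1 group was high had to differ, so the counts below describe these 44 and not the families. ftr06 and ftr85 reached 1 CPM in mismatch libraries alone, and pimr138 in knockout libraries alone. No knockout library reached 1 CPM for ms4a17a.7, nitr8, nitr11a, pimr79, ftr93, ftr87 or ftr56, which passed through WIK-derived libraries. Calls of these members between knockout and WIK-derived groups partly follow from the filter and are a description. The reads of near-identical copies may have been shared or dropped in counting. How such reads were treated is not stated in the sources used here, and every value of these families is uncertain to that extent.

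At 24 hpf 12 of the 44 members differed between knockout and WIK, 5 higher and 7 lower, with an adjusted p under 0.05 by limma over 20738 genes, of which 6.01% were called higher and 6.63% lower. That is 27.3% of the members tested, beside 12.6% of all genes tested. At least a 2-fold difference was seen for 5 of them, beside 2.91% of all genes called at that size. The 12 include ms4a17a.7, nitr8, nitr11a, pimr79, ftr93 and pimr138, whose calls partly follow from the filter. At 72 hpf 9 members differed, 4 higher (beside 5.11% of all genes) and 5 lower (beside 5.71%). In all that is 20.5% beside 10.8% of all genes, with 2 of them at least 2-fold, beside 2.38%. Without the 4 libraries that stand apart 10 members passed at 72 hpf, beside 4645 of all genes in place of 2245. At 24 hpf 12 passed without them, beside 3898 of all genes in place of 2620. The excess of members over all genes therefore depends on these libraries. The median absolute log2 difference was 0.30 for the members and 0.21 for all genes at 24 hpf, and 0.19 and 0.17 at 72 hpf. Differences are on the log2(CPM + 0.5) scale, on which changes of low genes come out too small. The 44 members did not move as a block, with a median signed difference of 0.03 at 24 hpf and -0.12 at 72 hpf.

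**Figure D1:**
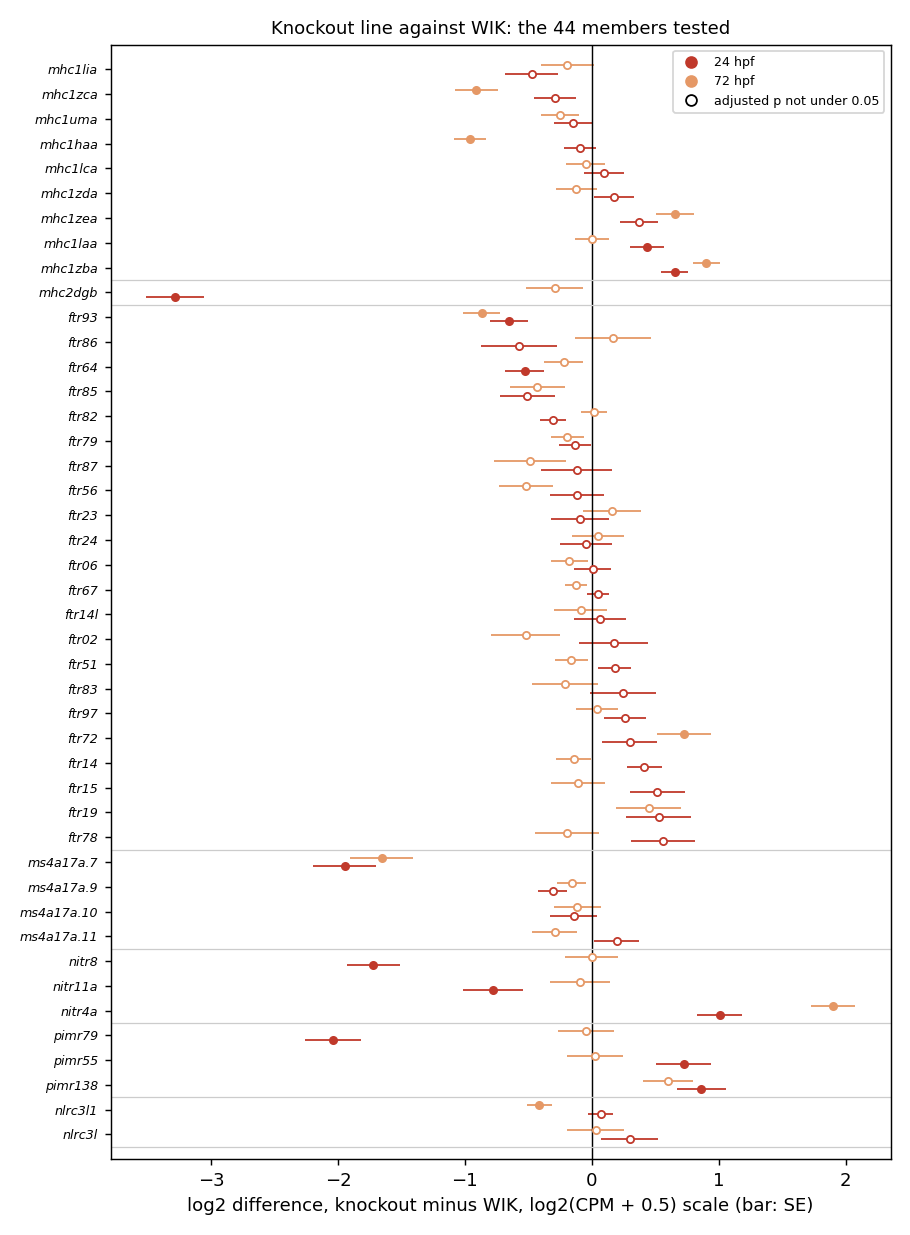
Log2 difference between knockout (KO) and WIK, with its standard error, for the 44 members tested, in blocks by family and at 24 and 72 hpf. Filled points passed an adjusted p of 0.05, and they lie on both sides of 0, from -3.29 for mhc2dgb at 24 hpf to 1.90 for nitr4a at 72 hpf.

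Among the class I genes, mhc1zba, of the Z lineage, was higher in the knockout at both ages. Its CPM in the 3 libraries of a group was 29.1, 25.5 and 29.3 in WIK and 42.6, 45.4 and 44.6 in the knockout at 24 hpf, and 25.2, 29.7 and 26.4 against 55.0, 51.9 and 46.5 at 72 hpf. The injected WIK pools were on the WIK side, with 23.8, 24.7 and 24.8 CPM for the her3 morpholino and 29.5, 27.9 and 38.2 CPM for the mismatch morpholino. All 6 knockout libraries lay above all 12 WIK-derived libraries. The log2 difference was 0.65 ± 0.11 (SE, adjusted p = 0.000606) at 24 hpf and 0.90 ± 0.11 (adjusted p = 2.46e-05) at 72 hpf.

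Its neighbours in the Z array did not follow one direction. In the RefSeq gene order of GRCz12tu the 4 genes mhc1zea, mhc1zda, mhc1zca and mhc1zba lie side by side. At 72 hpf mhc1zea was at 2.2, 3.40 and 2.85 CPM in WIK against 5.01, 5.07 and 3.98 CPM in the knockout, a log2 difference of 0.66 ± 0.15 (adjusted p = 0.00951). The groups did not overlap, but the call was lost without WIK replicate 1 or without knockout replicate 2 (adjusted p up to 0.0581). mhc1zca went the other way, from 2.15, 3.03 and 2.39 CPM in WIK to 0.921, 1.2 and 1.19 CPM in the knockout (-0.91 ± 0.17, adjusted p = 0.00171). mhc1zda, between them, did not pass the test at either age (0.18 ± 0.16 at 24 hpf and -0.12 ± 0.16 at 72 hpf). Neither mhc1zea nor mhc1zca passed at 24 hpf, with differences of 0.37 ± 0.15 and -0.29 ± 0.17.

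mhc1haa, of the H lineage, differed at 72 hpf and not at 24 hpf. At 24 hpf it was at 25.5, 20.4 and 22.2 CPM in WIK and 21.0, 22.2 and 20.4 CPM in the knockout, and the groups overlapped (-0.09 ± 0.12, adjusted p = 0.659). At 72 hpf it was at 13.9, 14.8 and 15.4 CPM in WIK and 8.19, 7.03 and 6.77 CPM in the knockout. All 3 knockout libraries were then below the WIK libraries (-0.96 ± 0.12, adjusted p = 7.06e-05). The knockout difference at 72 hpf was below that at 24 hpf by the interaction test (-0.87 ± 0.18, adjusted p = 0.00935).

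The L-lineage gene mhc1laa had 8.58, 10.4 and 10.1 CPM in WIK and 13.1, 12.5 and 14.1 CPM in the knockout at 24 hpf. The difference of 0.43 ± 0.13 was near the threshold (adjusted p = 0.0410) and the call was lost in 8 of 16 alternative settings, among them those without WIK replicate 1 and without each of knockout replicates 1, 2 and 3. At 72 hpf mhc1laa was at 6.34, 6.80 and 7.22 CPM in WIK and 7.68, 5.64 and 7.18 CPM in the knockout, with the groups overlapping. In the RefSeq order of GRCz12tu mhc1laa lies 55 genes from her3, and 10 members lie on the her3 chromosome, 7 of them within 100 genes of it. What that position contributes was not tested. A further L-lineage gene, mhc1lia, did not pass against WIK (-0.47 ± 0.21 at 24 hpf) but was lower in the knockout than in the injected pools, where it was at 3.73, 5.83 and 4.98 CPM (her3 morpholino) and 3.42, 4.46 and 5.93 CPM (mismatch) against 2.35, 2.62 and 2.47 CPM (-0.79 ± 0.18, adjusted p = 0.00399). The summed CPM of all 14 mhc1 genes was 80.01 ± 2.54 in WIK and 96.8 ± 1.85 in the knockout at 24 hpf, of which mhc1zba alone accounted for 28.0 and 44.2 CPM.

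The single class II gene that could be tested, mhc2dgb, had the largest difference of the members tested on the log2(CPM + 0.5) scale at 24 hpf, while the plain ratio of CPM was larger for ms4a17a.7 and pimr79. It was at 19.4, 28.3 and 26.6 CPM in WIK at 24 hpf and 2.40, 2.09 and 1.73 CPM in the knockout. Injected WIK pools were not alike, with 20.0, 42.0 and 41.0 CPM for the her3 morpholino and 8.36, 7.12 and 8.61 CPM for the mismatch morpholino. The knockout was below every WIK-derived library, and the mismatch libraries were below all other WIK-derived ones. The log2 difference from WIK was -3.29 ± 0.23 for the knockout (adjusted p = 9.81e-08) and -1.55 ± 0.23 for the mismatch group (adjusted p = 0.000398), and the her3 morpholino was above the mismatch group by 1.96 ± 0.23 (adjusted p = 8.56e-05). At 72 hpf mhc2dgb had nearly vanished, with 0.146, 0.106 and 0.203 CPM in WIK and 0.0512, 0 and 0.0458 CPM in the knockout, so that no difference was detectable at this depth. In RefSeq order it lies 175 genes from her3. In pools of whole embryos fewer cells of a type and less RNA per cell cannot be told apart, and this holds for every level given here.

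Class II transcripts are markers of antigen-presenting cells, so leukocyte markers were read beside mhc2dgb. Of 20 leukocyte genes tested, 1 (cybb) was higher and 1 lower in the knockout at 24 hpf, beside 6.01% and 6.63% of all genes. The lower one was 1 of several genes with the macrophage symbol MFAP4, from 8.54 to 3.56 CPM (-1.13 ± 0.31, adjusted p = 0.0242). The summed CPM of the 23 genes found of this list ranged from 196 to 216 in the knockout and 181 to 232 in WIK. Of the 10 class II presentation genes, cd74a, the invariant chain, was higher (0.54 CPM in WIK against 1.05 CPM in the knockout, 0.58 ± 0.15, adjusted p = 0.0167). ctss2.2, a cathepsin S gene, was lower (-0.70 ± 0.16, adjusted p = 0.00721). The summed CPM of the class II list was 2961 to 4139 in WIK and 2589 to 2756 in the knockout. The injected pools were low as well, at 1708.5 to 2676.7 in the her3 morpholino, where mhc2dgb was highest, and 2036 to 2908 in the mismatch group. The part of these in the difference of mhc2dgb was not tested.

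In the nitr family all 3 of the genes tested passed at 24 hpf (beside 12.6% of all genes), in both directions, with the call of nitr11a lost in most alternative settings. nitr8 and nitr11a had reached the filter through WIK-derived libraries alone. nitr4a was at 0.934, 0.739 and 1.18 CPM in WIK and 2.30, 2.41 and 2.47 CPM in the knockout at 24 hpf, and at 0.878, 0.638 and 0.508 CPM against 3.07, 4.64 and 3.98 CPM at 72 hpf. Its difference was 1.01 ± 0.17 (adjusted p = 0.00102) and 1.90 ± 0.17 (adjusted p = 2.01e-06), and all 6 knockout libraries lay above all 12 WIK-derived ones. The her3 morpholino pools had 0.721, 1.15 and 1.28 CPM, within or close to the WIK range, but the 3 mismatch libraries had no read. Against the floor of 3 reads per library, mean nitr4a was at least 7.09-fold higher in WIK, 7.83-fold higher in the her3 morpholino and 17.9-fold higher in the knockout than in the mismatch group. nitr4a was the only 1 of the 44 members without a read in some group at 24 hpf. Over all genes, 3 had no read in the mismatch group while averaging at least 1 CPM in another group at 24 hpf. That number is 0.0145% of the 20738 genes tested, and genes low in every 24 hpf group were not counted. Of the lymphoid list, 19 genes found in the table summed to 206 to 228 CPM in WIK and 199.5 to 209 CPM in the knockout at 24 hpf. At 72 hpf, where nitr4a was highest, the sum was 376.4 to 412 CPM in WIK and 470.0 to 529.6 CPM in the knockout, higher in every knockout library. TOX and bcl11ba, known from T cells and from neurons, made up most of it. Group means of low lymphocyte markers did not go one way at 72 hpf. cd79a, a defining gene of B cells, averaged 0.271 CPM in WIK and 0.901 CPM in knockout libraries, and il7r 0.711 and 1.06 CPM. cd79b went from 0.342 CPM in WIK to 0.193 CPM in the knockout, and lck from 0.257 to 0.109 CPM. At 24 hpf cd79b was at 0 in the 3 knockout libraries, but WIK averaged only 0.0176 CPM. Their part in the difference of nitr4a was not tested.

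nitr8 and nitr11a, in 1 run of RefSeq order with 2 genes between them, were lower in the knockout at 24 hpf. nitr8 was at 3.48, 2.90 and 2.25 CPM in WIK and 0.400, 0.642 and 0.514 CPM in the knockout (-1.72 ± 0.21, adjusted p = 3.55e-05). The her3 morpholino libraries were at 1.1, 1.23 and 2.21 CPM, below WIK (-0.77 ± 0.21, adjusted p = 0.0241), and the mismatch libraries at 2.0, 2.12 and 3.5 CPM overlapped WIK. The her3 morpholino call was lost in 5 of 16 alternative settings, among them those without WIK replicate 1, her3 morpholino replicate 1 or replicate 2. nitr11a was at 1.1, 0.264 and 0.460 CPM in WIK and 0.150, 0.107 and 0.0934 CPM in the knockout, a range where a library holds a handful of reads (-0.78 ± 0.24, adjusted p = 0.0413). That call was lost in 11 of 16 settings (adjusted p up to 0.189), among them those without WIK replicate 1 and without each of knockout replicates 1, 2 and 3. At 72 hpf nitr8 had no read in any of the 6 libraries, so nothing can be said of the line at that age. The summed CPM of the 7 nitr genes at 72 hpf was 0.963 ± 0.254 in WIK and 3.96 ± 0.809 in the knockout, where nitr4a alone was at 3.90 CPM.

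**Figure D2:**
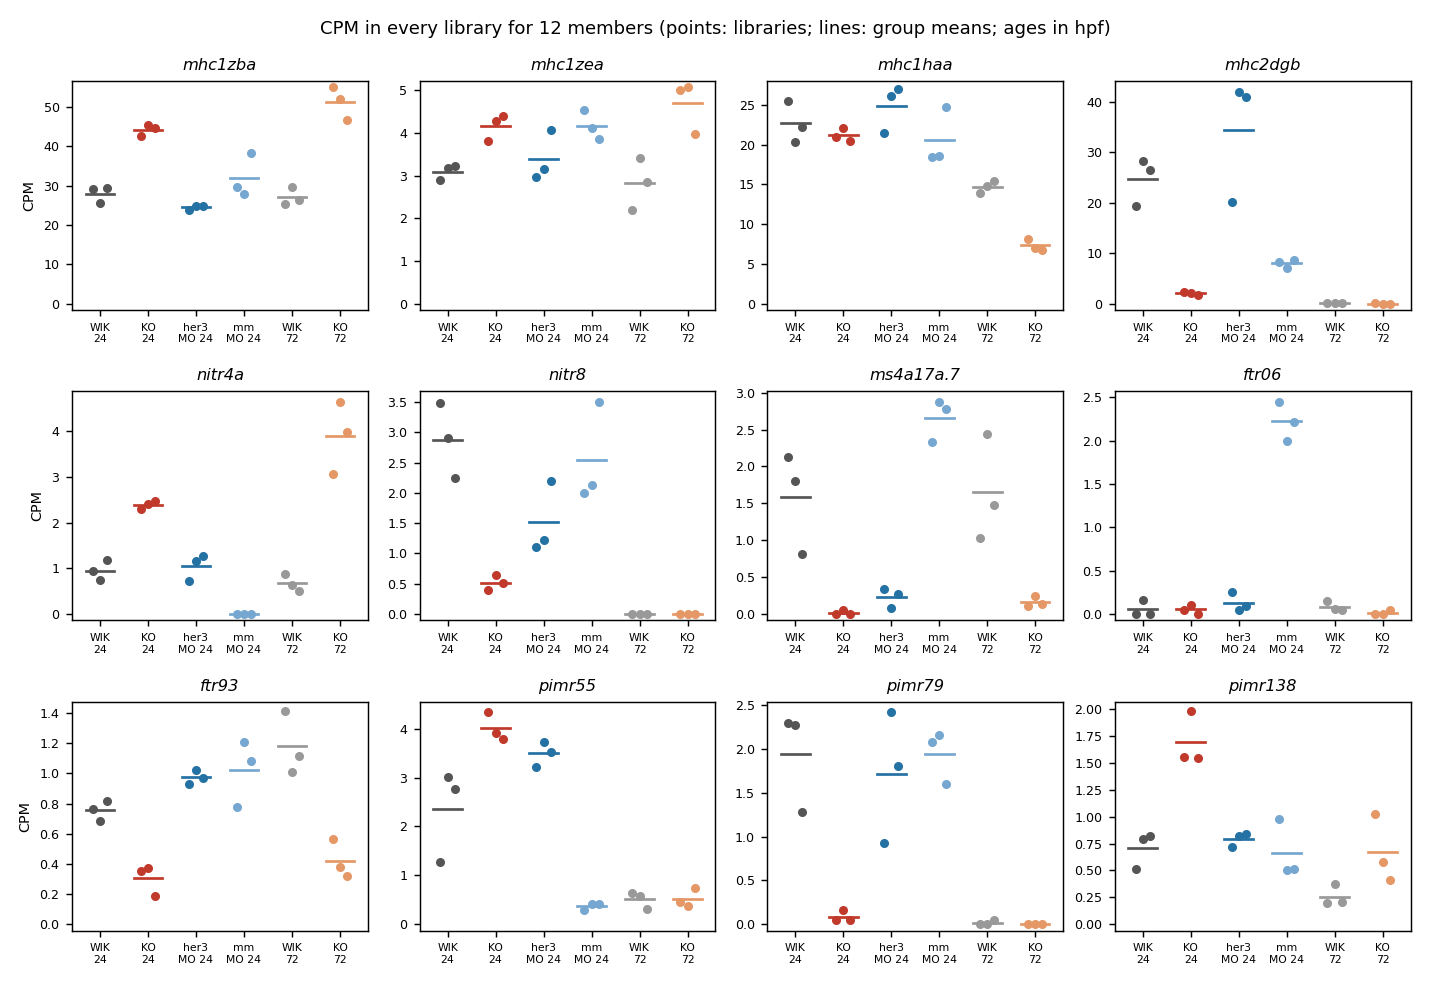
CPM in every library for 12 members, with the group mean as a line, for WIK, knockout (KO), her3 morpholino (her3 MO) and mismatch morpholino (mm MO) at 24 hpf and WIK and KO at 72 hpf. mhc1zba and nitr4a are high in both knockout groups and ms4a17a.7 is low in both, while ftr06 reaches 2.0 to 2.45 CPM in the mismatch group alone.

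One gene of the ms4a17a array was almost silent in the knockout. ms4a17a.7 was at 2.12, 1.80 and 0.819 CPM in WIK and 0, 0.0535 and 0 CPM in the knockout at 24 hpf, and at 1.02, 2.44 and 1.47 CPM against 0.102, 0.239 and 0.137 CPM at 72 hpf. At 24 hpf the knockout libraries held 1 read together and WIK 75, a ratio of 89.7 with a 95% counting interval of 15.6 to 3590. The her3 morpholino libraries were low as well, with 0.339, 0.0821 and 0.265 CPM, whereas the mismatch libraries were at 2.32, 2.87 and 2.78 CPM. The log2 difference from WIK was -1.95 ± 0.25 (adjusted p = 6.29e-05) and -1.65 ± 0.25 (adjusted p = 0.000281) for the knockout and -1.47 ± 0.25 (adjusted p = 0.00184) for the her3 morpholino. The last call was lost when only these 2 groups were fitted (adjusted p = 0.130), while the 3 her3 morpholino libraries lay below all WIK and mismatch libraries.

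All 13 ms4a17a genes and ftr51 form 1 run of 14 members in RefSeq order, the largest of 26 runs that hold 86 of the 122 members matched there. The other tested genes of the array, ms4a17a.9, ms4a17a.10 and ms4a17a.11, did not pass between knockout and WIK at either age. ms4a17a.9 was at 25.8, 23.3 and 18.2 CPM in WIK libraries, 18.4, 18.1 and 17.04 CPM in the knockout, 14.1, 16.002 and 13.7 CPM in the her3 morpholino and 23.7, 22.8 and 24.9 CPM in the mismatch group at 24 hpf. The her3 morpholino libraries were the lowest, under WIK by -0.59 ± 0.12 (adjusted p = 0.00478, and 0.191 when only these 2 groups were fitted) and under the mismatch group by -0.69 ± 0.12 (adjusted p = 0.00253). ms4a17a.10 was higher in the her3 morpholino (1.44, 1.56 and 2.07 CPM) than in WIK (1.1, 0.687 and 0.819 CPM), by 0.68 ± 0.18 (adjusted p = 0.0258), a call lost in 5 of 16 settings, among them those without WIK replicate 2, her3 morpholino replicate 2 or replicate 3. Below the filter, ms4a17a.17 was low in the knockout like ms4a17a.7, with no read at 24 hpf and 17 reads in WIK (-0.69 ± 0.15, adjusted p = 0.00591 without the filter).

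**Figure D3:**
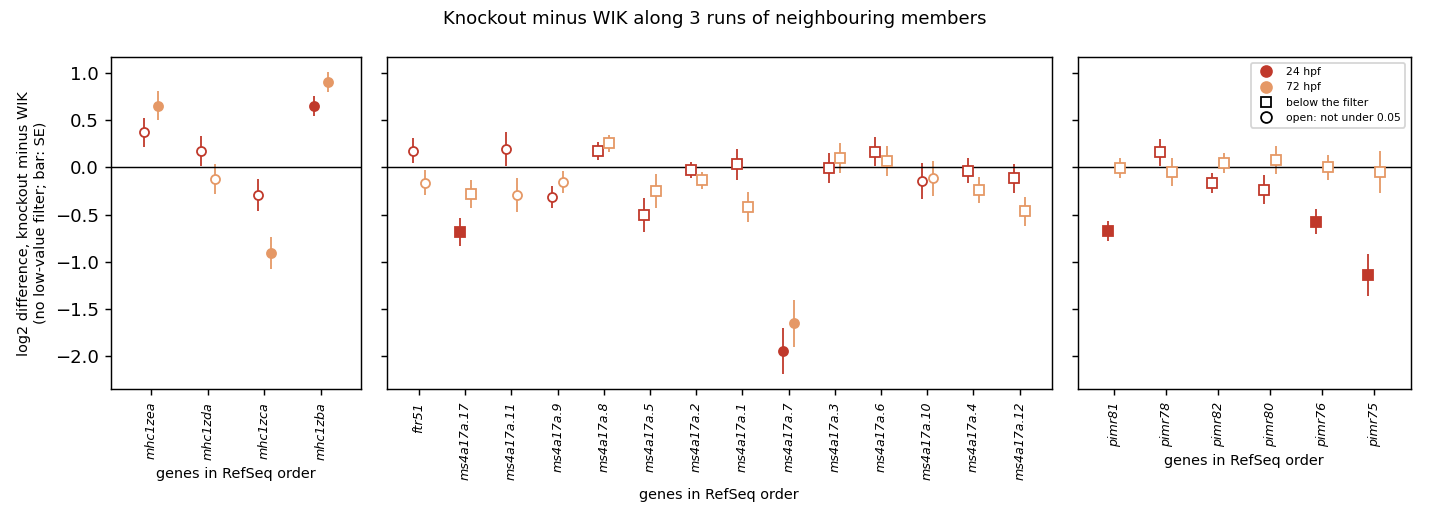
Log2 difference between knockout and WIK, with its standard error, for members in RefSeq gene order along 3 runs: the mhc1z genes, the ms4a17a array with ftr51, and a pimr cluster. All members are shown from a fit without the filter on low values (squares were below the filter, filled symbols passed), and called genes sit next to genes that did not pass, with mhc1zca and mhc1zba of 1 run on opposite sides of 0.

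Of the 22 ftr genes tested 2 passed at each age (9.09%, beside 12.6% of all genes at 24 hpf and 10.8% at 72 hpf). ftr93 was lower in the knockout at both ages, with 0.764, 0.687 and 0.819 CPM in WIK and 0.350, 0.375 and 0.187 CPM in the knockout at 24 hpf, and 1.42, 1.01 and 1.12 against 0.563, 0.383 and 0.320 CPM at 72 hpf. All knockout libraries were below all WIK-derived ones (-0.65 ± 0.15, adjusted p = 0.00813, and -0.87 ± 0.15, adjusted p = 0.000906). The 24 hpf call was lost without knockout replicate 3 and when only these 2 groups were fitted (adjusted p up to 0.0638). ftr64 was lower at 24 hpf, with 1.27, 1.27 and 1.59 CPM in WIK and 0.650, 1.02 and 0.747 CPM in the knockout. Its difference of -0.53 ± 0.16 (adjusted p = 0.0343) was lost in 9 of 16 settings, among them those without WIK replicate 1 or 3 or knockout replicate 1 or 3, and the mismatch libraries at 1.06, 1.00 and 0.773 CPM overlapped the knockout.

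ftr72 was higher at 72 hpf, with 0.293, 0.585 and 0.559 CPM in WIK and 1.18, 1.24 and 0.915 CPM in the knockout. That difference of 0.73 ± 0.21 (adjusted p = 0.0381) was lost when any 1 of the 6 libraries was left out. ftr82, whose CPM was the highest of the ftr genes over all libraries, was at 76.01 ± 7.24 CPM in WIK against 61.3 ± 0.891 CPM in the knockout at 24 hpf and did not pass (-0.30 ± 0.10, adjusted p = 0.0617). At 72 hpf it was at 28.0 ± 2.30 and 28.3 ± 2.49 CPM. The summed CPM of the 55 ftr genes was 220 ± 29.7 in WIK and 201.2 ± 4.02 in the knockout at 24 hpf, within the range of the WIK libraries.

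Of the 65 pimr genes 3 could be tested, and all 3 passed at 24 hpf, beside 12.6% of all genes. pimr138 had reached the filter through the knockout alone and pimr79 through WIK-derived libraries alone. pimr79 was at 2.29, 2.27 and 1.28 CPM in WIK, 0.932, 2.42 and 1.81 CPM in the her3 morpholino and 2.08, 2.17 and 1.60 CPM in the mismatch group, but at 0.050, 0.161 and 0.0467 CPM in the knockout. The 3 knockout libraries lay far below the other 9 (-2.04 ± 0.22 against WIK, adjusted p = 1.17e-05). pimr138 was higher, with 0.509, 0.792 and 0.819 CPM in WIK and 1.55, 1.98 and 1.54 CPM in the knockout (0.86 ± 0.20, adjusted p = 0.00783), a call lost when only these 2 groups were fitted (adjusted p = 0.0505). The knockout libraries lay above the other 9, and above the 3 WIK libraries at 72 hpf too, where the difference of 0.60 ± 0.20 did not pass (adjusted p = 0.0614).

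pimr55 separated the injected groups. It was at 1.27, 3.01 and 2.76 CPM in WIK libraries, 4.35, 3.91 and 3.78 CPM in the knockout, 3.22, 3.73 and 3.53 CPM in the her3 morpholino and 0.285, 0.417 and 0.412 CPM in the mismatch group at 24 hpf. The 3 mismatch libraries were below all others, under WIK by -1.65 ± 0.22 (adjusted p = 0.000161, and 0.0717 when only these 2 groups were fitted) and under the her3 morpholino, which was higher by 2.2 ± 0.22 (adjusted p = 2.08e-05). The knockout difference from WIK, 0.72 ± 0.22 (adjusted p = 0.0397), was lost in 11 of 16 settings, among them those without WIK replicate 1, the low WIK library, and without each of knockout replicates 1, 2 and 3. At 72 hpf pimr55 ranged from 0.305 to 0.732 CPM over both groups and did not differ by the test (0.03 ± 0.22).

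The 3 Pim kinase genes themselves, PIM1, pim2 and PIM3, moved otherwise: none passed at 24 hpf and all 3 were higher in the knockout at 72 hpf. Over all genes, 5.11% were called higher at 72 hpf. pim2 averaged 10.1 CPM in WIK against 18.8 CPM in the knockout (0.87 ± 0.13, adjusted p = 0.000325). PIM3 rose by 0.42 ± 0.06 (adjusted p = 0.000309) and PIM1 by 0.38 ± 0.07 (adjusted p = 0.00167).

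Of the nlrc3 genes, nlrc3l1 was lower in the knockout at 72 hpf, with 23.7, 27.3 and 25.5 CPM in WIK and 19.6, 19.7 and 17.8 CPM in the knockout. The groups did not overlap (-0.41 ± 0.10, adjusted p = 0.0119), and the call was lost under plain total scaling and without WIK replicate 2 or knockout replicate 3 (adjusted p up to 0.0673). At 24 hpf nlrc3l1 was at 30.9 ± 3.93 and 32.3 ± 1.47 CPM. nlrc3l, which in zebrafish restrains macrophage activation, did not pass at either age (0.30 ± 0.23 and 0.03 ± 0.23).

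Read over both ages, 4 members passed against WIK in the same direction at 24 and 72 hpf: mhc1zba and nitr4a higher, ftr93 and ms4a17a.7 lower. They are 33.3% of the 12 called at 24 hpf and 44.4% of the 9 called at 72 hpf, beside 27.0% and 31.5% for all genes. The knockout libraries lay apart from all 9 WIK-derived libraries at 24 hpf for 13 of the 44 members, 6 above and 7 below (29.5%, beside 13.7% of all genes). At 72 hpf they lay apart from the 3 WIK libraries for 20 (45.5%, beside 35.7%). For 6 members this held in the same direction at both ages (13.6%, beside 6.11%): mhc1zba, nitr4a and pimr138 above, and mhc2dgb, ms4a17a.7 and ftr93 below. For mhc2dgb the 72 hpf values are a few reads at most. pimr138 was tested through knockout libraries alone, and ms4a17a.7 and ftr93 through WIK-derived libraries alone, so their places partly follow from the filter. The same holds for nitr8, nitr11a and pimr79 among the 13 at 24 hpf. Among the 20 at 72 hpf it holds for ftr56, ftr85, ftr87 and ftr06, which also passed through WIK-derived libraries alone. The shares of 29.5% and 45.5% include all of these.

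Against the injected WIK pools, taken as the mean of both morpholino groups, 17 of the 44 members differed from the knockout at 24 hpf, 6 higher and 11 lower (38.6%, beside 24.9% of all genes). mhc1zba, mhc1laa, nitr4a, pimr55 and pimr138 were higher, and mhc2dgb, ms4a17a.7, nitr8, nitr11a, pimr79 and ftr93 lower, as against uninjected WIK, in comparisons that share the 3 knockout libraries. The mean of both morpholino groups hides that they were unlike for some of these. pimr55 averaged 4.01 CPM in the knockout and 3.49 CPM in the her3 morpholino, so its difference rests mostly on the mismatch group. That of ms4a17a.7 does so too, and that of nitr11a rests mostly on the her3 morpholino. The call of mhc1laa was lost under plain total scaling and without knockout replicate 3 (adjusted p up to 0.109). The largest were mhc2dgb (-2.71 ± 0.20, adjusted p = 7.39e-08), pimr79 (-1.96 ± 0.19, adjusted p = 1.73e-06) and nitr4a (1.73 ± 0.15, adjusted p = 5.50e-07), for which the mismatch group had no read. ftr67 was higher by 0.23 ± 0.08 (adjusted p = 0.0321), a call lost in 7 of 19 settings, among them those without each knockout library, her3 morpholino replicate 2 or mismatch replicate 1. ms4a17a.10 was lower (-0.66 ± 0.16, adjusted p = 0.00576), a call lost without knockout replicate 1. ftr06 was lower (-1.24 ± 0.13), with most of its reads in the mismatch group, and so was ftr85 (-0.84 ± 0.19). Both had passed the filter through mismatch libraries alone. Their calls, and those of pimr138, ms4a17a.7, nitr8, nitr11a, pimr79, ftr93 and ftr87, partly follow from the filter. The share of 38.6% includes them.

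The WIK-derived groups, described as WIK and not as the mutant line, differed from each other as well. What was injected and the unstated parents of the pools cannot be told apart in these comparisons. Between the her3 and the mismatch morpholino 7 members passed, 4 higher and 3 lower in the her3 group (15.9%, beside 3.35% of all genes). Of them 5 differed at least 2-fold, beside 0.810% of all genes, and these include ftr06, which passed the filter through mismatch libraries alone. No mismatch library reached 1 CPM for nitr4a, pimr55 or nitr11a, and no her3 morpholino library did for ms4a17a.7. Calls of these members between the morpholino groups partly follow from the filter, and the share of 15.9% includes them. Without the 4 libraries that stand apart 8 members passed, beside 2678 of all genes in place of 694. The size of the excess depends on these libraries. Against WIK 4 members passed for the her3 morpholino (9.09%, beside 14.5%) and 5 for the mismatch morpholino (11.4%, beside 10.5%). These comparisons share control libraries. None of the 9 mhc1 genes tested passed among the WIK-derived groups, though 4 had an unadjusted limma p under 0.05 between the 2 morpholinos. mhc1zba came nearest (-0.36 ± 0.11, adjusted p = 0.0788), with the her3 morpholino libraries below all WIK and mismatch libraries. mhc1zja, below the filter, had reads in WIK and the mismatch group and none in the her3 morpholino.

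ftr06 passed the filter through the 3 mismatch libraries alone, so it had to differ and its values are a description. It was at 0, 0.158 and 0 CPM in WIK, 0.254, 0.0410 and 0.0882 CPM in the her3 morpholino and 0.050, 0.107 and 0 CPM in the knockout, but at 2.45, 2.0 and 2.22 CPM in the mismatch group. The mismatch libraries held 151 reads and the WIK libraries 3, a ratio of 37.2 with a 95% counting interval of 12.5 to 183. ftr51 was slightly higher in the mismatch group than in WIK (0.44 ± 0.13, adjusted p = 0.0427), a call lost in 9 of 16 settings, among them those without WIK replicate 1 and without each mismatch library. nitr11a was higher in the her3 than in the mismatch morpholino, with 0.636, 1.11 and 1.59 against 0.163, 0.25 and 0.464 CPM (1.00 ± 0.24, adjusted p = 0.0298), a call lost in 6 of 16 settings, among them those without her3 morpholino replicate 2 or 3 or mismatch replicate 1 or 2.

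**Figure D4:**
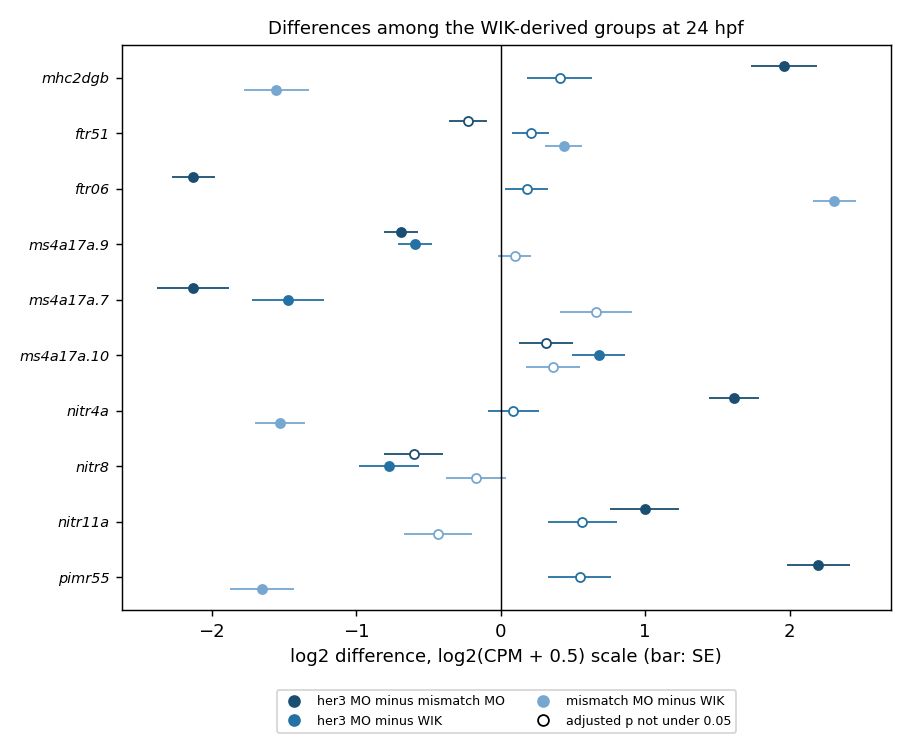
Log2 difference, with its standard error, among her3 morpholino, mismatch morpholino and uninjected WIK at 24 hpf for the 10 members that passed in at least 1 of the 3 comparisons, which share libraries. Filled points passed, and mhc2dgb, ftr06, nitr4a and pimr55 set the mismatch group apart from both others, while ms4a17a.7 and ms4a17a.9 set the her3 morpholino apart.

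The 124 members below the filter held few reads, and a fit without the filter called 25 of all 168 members at 24 hpf (14.9%, beside 10.9% of all 25535 genes) and 21 at 72 hpf (12.5%, beside 10.1%). Of those below the filter 3 were higher and 10 lower at 24 hpf, and 1 higher and 11 lower at 72 hpf. No share by direction was taken over all genes below the filter, so these counts describe the members alone. Knockout libraries lay apart from all WIK-derived ones at 24 hpf for 8.87% of the 124, beside 5.29% of all 4797 genes below the filter. At 72 hpf they lay apart from WIK for 25.8%, beside 20.5%. The class II gene mhc2d8.37a2 was at 0.764, 0.581 and 0.512 CPM in WIK and had no read in the knockout, so that WIK was at least 4.12-fold higher against the floor. mhc2bl also had no read in the 6 knockout libraries, with 15 reads in WIK at 24 hpf and 16 at 72 hpf. mhc2dab was the reverse at 72 hpf, with 44 reads in the knockout and 3 in WIK, a ratio of 13.9 (4.45 to 69.9).

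The class I gene mhc1zja had no read in the her3 morpholino libraries but 34 in WIK and 54 in the mismatch group, at least 4.99-fold and 6.06-fold higher. In the knockout it was at 0.10, 0.0535 and 0.0467 CPM, against 0.340, 1.06 and 0.512 CPM in WIK (-0.95 ± 0.18, adjusted p = 0.00268 without the filter). Of the 6 pimr genes of the run that holds pimr75 to pimr82, 3 were lower in the knockout at 24 hpf, pimr75 (-1.14 ± 0.23, adjusted p = 0.00306), pimr76 (-0.57 ± 0.13, adjusted p = 0.00763) and pimr81 (-0.67 ± 0.10, adjusted p = 0.000357), and the other 3 did not pass. These members were picked after their values were seen, and differences of this size rest on few reads.

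**Figure D5:**
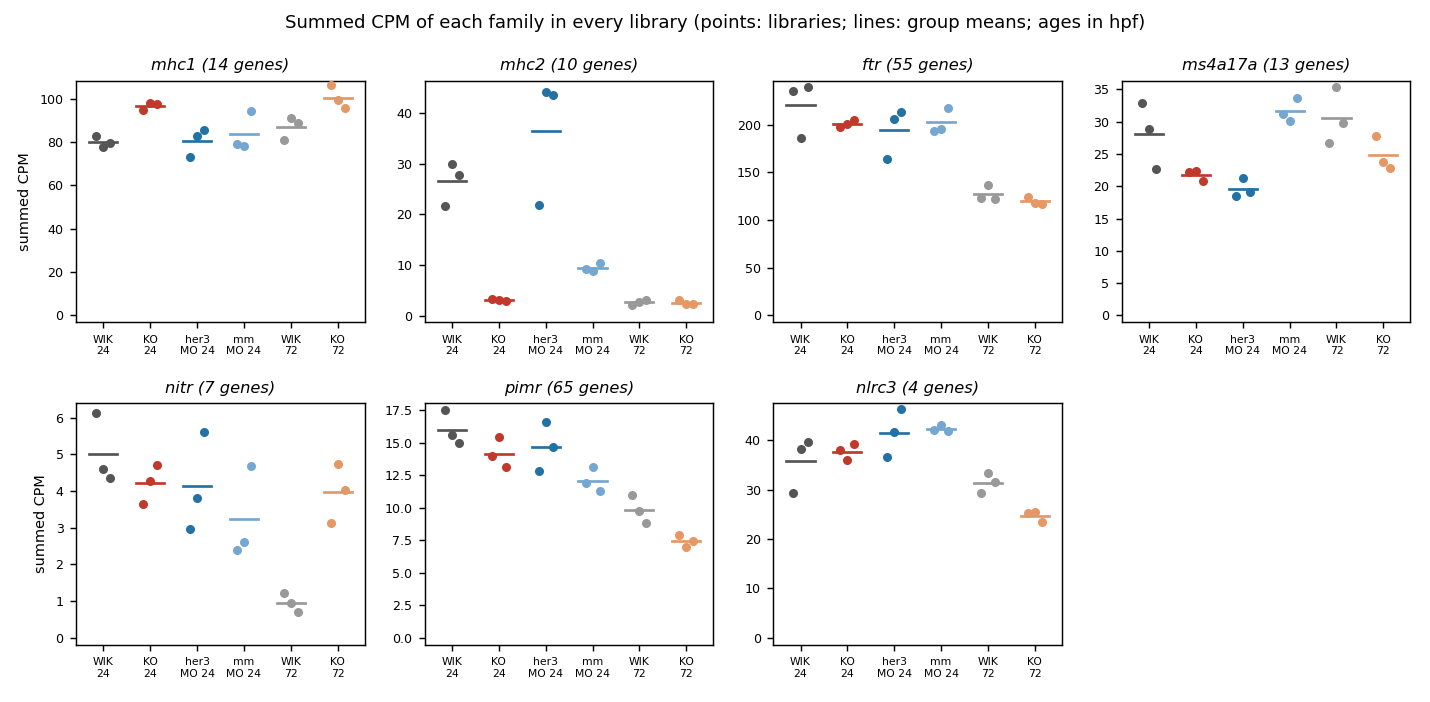
Summed CPM of all members of each of the 7 families in every library, with the group mean as a line, at 24 and 72 hpf. The mhc2 sum, at 26.5 CPM in WIK against 3.15 CPM in the knockout at 24 hpf, follows mhc2dgb, and the nitr sum at 72 hpf, at 0.963 and 3.96 CPM, follows nitr4a, whereas the ftr sums overlap between knockout and WIK.

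The summed CPM of the ms4a17a genes was 28.2 ± 5.18 CPM in WIK against 21.8 ± 0.845 CPM in the knockout at 24 hpf, and 19.6 ± 1.46 and 31.7 ± 1.83 CPM in the her3 and mismatch morpholino groups. The nlrc3 sum was 35.7 ± 5.59 CPM in WIK against 37.7 ± 1.65 CPM in the knockout at 24 hpf, and 31.4 ± 2.02 and 24.7 ± 1.14 CPM at 72 hpf. The pimr sum was 16.003 ± 1.33 and 14.2 ± 1.16 CPM at 24 hpf and 9.85 ± 1.07 and 7.43 ± 0.448 CPM at 72 hpf. These sums weigh long genes more, and no test was run on them.

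Genes that work with these families were read beside them. Of 16 class I presentation genes tested, 0 were higher and 3 lower in the knockout at each age, beside 6.63% of all genes called lower at 24 hpf and 5.71% at 72 hpf. b2m, the light chain of class I molecules, fell from 6.86 to 3.96 CPM at 24 hpf (-0.67 ± 0.20, adjusted p = 0.0391). At 72 hpf b2ml, its paralogue, fell from 84.8 to 47.7 CPM (-0.82 ± 0.10, adjusted p = 2.46e-05). CALR, a chaperone of class I assembly, fell at both ages (-0.73 ± 0.07 and -0.74 ± 0.07, adjusted p = 6.98e-06 and 5.18e-06), and so did ERAP1, which trims peptides (-0.59 ± 0.16 and -0.83 ± 0.16, adjusted p = 0.0225 and 0.00265). Members rose and fell beside them: mhc1zba was higher and mhc1haa and mhc1zca lower at 72 hpf.

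Over all genes, 6.01% were called higher and 6.63% lower at 24 hpf, and 5.11% and 5.71% at 72 hpf. A single call in 1 of the lists below is not far from these shares and describes that gene alone. Of 11 interferon response genes tested, 1 (irf9) was higher at 24 hpf and 1 (isg15) lower at 72 hpf, the latter from 2.79 to 0.617 CPM (-1.50 ± 0.27, adjusted p = 0.00148). Of 23 TRIM genes outside the ftr family, 1 was higher and 1 lower at each age. Of 11 inflammasome and NOD-like receptor genes, caspa was lower at 24 hpf (-0.56 ± 0.16, adjusted p = 0.0282), and NOD2 (-0.62 ± 0.14, adjusted p = 0.00770) and APAF1 (-0.38 ± 0.09, adjusted p = 0.00946) were lower at 72 hpf. Of 10 lymphoid genes, 1 was higher and 2 lower at 24 hpf and 3 were higher and 1 lower at 72 hpf. cd28, a T-cell costimulator, was higher at both ages (0.91 ± 0.17, adjusted p = 0.00160, and 1.11 ± 0.17, adjusted p = 0.000290).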

How the data were processed

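Per the labels' protocols, poly(A) RNA of pooled whole embryos was sequenced with a strand-directional kit. The authors deposited 1 table of CPM values scaled to an effective library size, with column sums of 912145 to 1206849. The submitters' processing notes name edgeR 3.34.0, featureCounts 2.0.2, HISAT2 2.2.1, SAMtools 1.10 and build danRer11. Settings, strand use and how reads with several matches were handled are unstated there. All values (100.0%) were whole multiples of 1 read within 0.01 reads. No gene had under 15 reads in total or reads in fewer than 3 libraries.

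log2(CPM + 0.5) was fitted with limma 3.58.1 in R 4.3.3 (trend and robust moderation) over all 18 libraries, with 1 coefficient per group, 12 residual degrees of freedom and Benjamini-Hochberg adjustment over the 20738 genes tested at a threshold of 0.05. Genes under 1 CPM in all but 2 libraries or fewer were left out. The step was tested on simulated data. A count test was foreseen, but the table holds CPM. Intervals and floors cover counting error only. CPM levels are mean ± SD with n = 3, and differences are ± SE. Replicates were described as biological, so p-values measure the spread between pools.

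Members and gene lists were chosen with earlier results of these data known. For each family the rule named up to 4 called members per direction in the 2 comparisons of knockout and WIK and up to 2 in the others, if the mean of the higher group reached 1 CPM, and the member of highest CPM. ftr93 and nitr11a at 24 hpf, nitr4a in the mismatch group and members below the filter were named outside it, after their values were seen. Symbols came from a table that named 23539 genes. Gene order came from RefSeq GRCz12tu, another build than that of the files, so no coordinates are given. Alternatives changed the pseudocount, filter, scaling, samples, block and test.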

Additional observations from a re-analysis of the deposited data

Results flagged for a closer look

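The interaction test of line and age, with limma over all 20738 genes, passed for 5 of the 44 members (11.4%, beside 4.64% of all genes). The difference at 72 hpf minus that at 24 hpf, on the log2 scale, was 2.99 ± 0.32 for mhc2dgb (adjusted p = 5.12e-05), 1.99 ± 0.31 for pimr79 (adjusted p = 0.00141) and 1.72 ± 0.29 for nitr8 (adjusted p = 0.00281). Each of these 3 genes was lower in the knockout at 24 hpf and at or near 0 reads in both groups at 72 hpf, where no difference could be seen at this depth, so that the value of nitr8 is its 24 hpf difference with the sign turned. A difference between ages of these 3 is not shown. In the fit of recovered reads with voom weights none of the 3 passed (adjusted p up to 0.517).

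For nitr4a, expressed at both ages, the difference grew by 0.89 ± 0.25 (adjusted p = 0.0498). That call was lost in 17 of 22 alternative settings, with an adjusted p of up to 0.127, among them those without WIK replicate 1 or 3 or any knockout replicate at 24 hpf, or without replicate 2 or 3 of WIK or of the knockout at 72 hpf.

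For mhc1haa, well above the floor at both ages, the difference at 72 hpf was lower than that at 24 hpf by -0.87 ± 0.18 (adjusted p = 0.00935), and the call was lost in none of the 22 settings run.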

How the results depend on the processing

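No call of a tested member changed its direction in any alternative: 1286 of the values kept their side of the threshold and 139 no longer passed. Members below the filter were fitted only without it. Without the filter the members called were 25 (knockout and WIK, 24 hpf), 21 (72 hpf), 39 (knockout and injected WIK), 11 (her3 and mismatch morpholino), 7 (her3 morpholino and WIK), 8 (mismatch morpholino and WIK), 10 (interaction of line and age) and 67 (WIK over age), since 168 genes were then tested in place of 44. Shares of all genes without the filter are given above for knockout and WIK alone, so the other counts carry no comparison with all genes. Voom on recovered reads, added after the data were seen, gave 19, 16, 32 and 67 without the filter for knockout and WIK at 24 hpf, at 72 hpf, knockout and injected WIK and WIK over age, and with the filter 1 for the interaction. With only the compared groups fitted, which leaves fewer libraries for the spread, limma called 6 for knockout and WIK at 24 hpf, 3 for mismatch morpholino and WIK, and 0 for her3 morpholino and WIK, where 5 members had an unadjusted p under 0.05 and voom on all libraries called 4. Over all genes these fits called 906, 154 and 70, in place of 2620, 2171 and 2997.

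Leaving out 1 library at a time gave 7 to 14 members for knockout and WIK at 24 hpf (7 without knockout replicate 3), 7 to 8 at 72 hpf, 15 to 17 for knockout and injected WIK, 6 to 7 for the 2 morpholinos, 2 to 7 for her3 morpholino and WIK (2 without her3 morpholino replicate 2, 7 without WIK replicate 2), 4 to 9 for mismatch morpholino and WIK (9 without WIK replicate 2), 4 to 6 for the interaction and 23 to 25 for WIK over age. Without the 4 libraries that stand apart 12 members passed for knockout and WIK at 24 hpf and 10 at 72 hpf. Over all genes the counts rose far more, to 3898 in place of 2620 at 24 hpf and 4645 in place of 2245 at 72 hpf. The excess of members over all genes therefore depends on these libraries. Between knockout and injected WIK 21 members passed in place of 17, beside 8864 of all genes in place of 5168. Between the her3 and the mismatch morpholino 8 passed in place of 7, beside 2678 of all genes in place of 694.

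No clear pairing of libraries by replicate number was seen: no group pair had every correlation over 0.1, and 27 of 66 choices matched their own number. All correlations were positive for the morpholino groups (lowest 0.071), knockout and WIK at 72 hpf (0.059) and WIK over age (0.005). A link between same-numbered libraries is thus not excluded. With the replicate block 9 members passed for knockout and WIK at each age, counted separately. The block took away the calls of mhc1laa, nitr11a and pimr55 at 24 hpf, ftr51 and the interaction of nitr4a. Plain totals moved the median of all genes by 0.15 for her3 morpholino and WIK and for WIK over age, and equal medians moved the latter by -0.26. The planned edgeR test was not run.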

Other observations

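In WIK the families also changed between 24 and 72 hpf: 25 of the 44 members tested passed, 8 higher and 17 lower at 72 hpf (56.8%, beside 74.5% of all genes). mhc1zda rose most, from 1.02, 1.64 and 0.870 CPM to 19.9, 18.9 and 21.3 CPM (3.64 ± 0.16, adjusted p = 3.07e-12), and its neighbour mhc1zca rose from 0.799 to 2.52 CPM on average (adjusted p = 5.39e-06). The knockout libraries at 72 hpf had 17.6, 17.7 and 19.8 CPM of mhc1zda. mhc2dgb fell by 5.26 ± 0.23 on the log2 scale (adjusted p = 2.67e-12) and nitr8 from 140 reads to none, at least 18.8-fold.

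The finTRIM genes split. ftr67 (1.30 ± 0.09, adjusted p = 6.52e-10) and ftr15 (1.33 ± 0.21, adjusted p = 3.10e-05) rose, whereas ftr82 (-1.43 ± 0.10, adjusted p = 1.51e-09), ftr83 (-1.77 ± 0.26, adjusted p = 1.09e-05), an antiviral member in zebrafish, and ftr14l (-1.70 ± 0.21, adjusted p = 1.18e-06) fell. All 3 pimr genes tested fell with age, and ms4a17a.11 rose (1.27 ± 0.18, adjusted p = 6.04e-06).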
